A study of Homo sapiens with 6 samples.

Results

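Expression of 10 genes for microtubule-binding and growth cone proteins was examined in the human glioma line U251. The genes were chosen by name, for their roles, and all 10 are among the 16832 gene symbols measured. They are the microtubule-associated protein genes MAP2, MAPT, MAP1A and MAP1B, the doublecortin family genes DCX and DCLK1, the stathmin genes STMN1, STMN2 and STMN3, and the growth cone gene GAP43. RNA sequencing compared 3 libraries of U251 cells kept for 18 days with SLCDS, a small-molecule combination of unstated components, with 3 libraries of control U251 cells that received PBS. Both groups are labelled WT and come from 1 cell line, and how long the control cells were cultured is not stated. Because the title of the series describes conversion to neuronal-like cells, the comparison asks whether genes of the neuronal cytoskeleton differ between treated and untreated cells. The labels do not say whether the 3 samples of a group were separate cultures, so p-values measure the spread between these samples only.

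Microtubules of neurites are stabilised by structural microtubule-associated proteins, of which MAP2 is known from dendrites and tau, the product of MAPT, from axons. MAP1B is prominent in growing neurites and MAP1A in mature ones. Doublecortin and its relative DCLK1 bind microtubules in migrating and young neurons, stathmins bind free tubulin and promote microtubule disassembly, and GAP43 is a membrane protein of the growth cone, the motile tip of a growing neurite.

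Library depth was 16264884 to 17166470 fragments, as the steps between FPKM values show (FPKM is the fragment count scaled by transcript length and library depth). Control replicate 3 stood apart from the other 5 libraries: Pearson's r over tested genes between it and each remaining control was at most 0.9767, while the remaining 2 controls reached 0.9969 with one another and SLCDS pairs at least 0.9966. The values of genes in that library followed transcript length. The median log2 ratio of FPKM + 1 in control replicate 3 to the mean of controls 1 and 2 was 0.39 over 2244 genes with transcripts under 2000 nucleotides and -0.54 over 680 genes with transcripts of 9000 nucleotides or more. Fold changes of the 8 tested genes of the group are given with and without that library. The label of the cells was checked against marker genes. The glial genes GFAP (127 to 141 FPKM in SLCDS and 312 to 354 in control) and SOX9 (103 to 106 and 112 to 129 FPKM) were abundant. Of 8 astrocyte markers 5 were at 1 FPKM or more in all libraries. AQP4, ALDH1L1 and SLC1A2 did not exceed 0.243, 0.185 and 0.737 FPKM in any library. RBFOX3, a defining gene of mature neurons, did not exceed 0.0206 FPKM in any library. The neuronal tubulin gene TUBB3 (28.7 to 45.3 FPKM over all libraries) and NEFL (22.9 to 29.4 FPKM) were abundant. SYN1, NEFM, ELAVL3 and ELAVL4 did not exceed 0.998, 0.0858, 0.13 and 0.174 FPKM in any library. Of 10 neuron markers 4 were at 1 FPKM or more in all libraries. The summed level of the 9 that were listed was 74.3 to 76.5 FPKM in SLCDS and 72.3 to 84.6 in control. TUBB3 and NEFL made up most of that sum. Of 4 tested neuron markers 1 was called higher, the synaptic vesicle gene SYT1 (log2 fold change 0.54; limma, adjusted p = 0.0353), and 0 lower. Over all tested genes limma called 4.28% higher and 1.82% lower. SYT1 passed in 11 of 19 alternative settings and missed in 8: no filter, the filter at a mean of 5 FPKM, FPKM-sum scaling, the replicate block, and without any 1 of the SLCDS libraries or control replicate 2 (limma, adjusted p of 0.0512 to 0.159). Without control replicate 3, where limma called 16.0% of all tested genes higher and 11.8% lower, 3 neuron markers were called higher and 1 lower. Those called higher were SYT1 (log2 fold change 0.42, limma adjusted p = 0.000577), SNAP25 (0.26, limma adjusted p = 0.0326) and NEFL (0.24, limma adjusted p = 0.0106). The one called lower was TUBB3 (log2 fold change -0.30, limma adjusted p = 0.00109). The summed level of 8 astrocyte markers was 388 to 406 FPKM in SLCDS and 665 to 736 in control. Most of that difference came from GFAP (means of 135 and 339 FPKM) and the gap junction gene GJA1 (58.8 and 118 FPKM), both called lower. Without control replicate 3 there were 1 higher and 4 lower of the 5 tested. The one higher was S100B (log2 fold change 0.44, limma adjusted p = 0.0105). The untested AQP4, ALDH1L1 and SLC1A2 had higher means in SLCDS (0.195, 0.131 and 0.66 FPKM) than in control (0.128, 0.0178 and 0.206 FPKM). Of fibroblast and pericyte markers ACTA2 and PDGFRB were called higher, with and without control replicate 3. PDGFRB passed the filter through its SLCDS libraries alone. The sum of that list overlapped, 370 to 379 FPKM in SLCDS and 365 to 398 in control. COL1A2 made up nearly all of it (361 to 368 and 362 to 394 FPKM), so the sum says little about the other genes. The part of these markers in the results was not tested.

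The tested genes whose FPKM lay higher in every SLCDS library than in every control library are the ones the results turn on. The 250 bases before the first RefSeq start site listed for 3 of them (MAP1A, STMN1 and GAP43) are shown to compare their promoters. Sequences are from RefSeq on GRCh38.p14, where 8 of the 10 genes were matched, 5′ to 3′ on the gene's own strand. Capitals mark matches on either strand to 5 motifs: the E-box, the GC box, the CCAAT box, the AP-1 site and the cAMP response element, whose matches may overlap. The E-box was searched as CANNTG and the GC box as GGGCGG. The AP-1 site was searched as TGANTCA. The cAMP response element was searched as TGACGTCA.
MAP1A, chr15:43510704-43510953, plus strand: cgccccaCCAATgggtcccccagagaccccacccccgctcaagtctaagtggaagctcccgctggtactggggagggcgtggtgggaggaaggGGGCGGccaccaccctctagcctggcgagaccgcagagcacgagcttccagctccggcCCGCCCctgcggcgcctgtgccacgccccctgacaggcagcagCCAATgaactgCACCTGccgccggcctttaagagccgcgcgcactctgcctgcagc
STMN1, chr1:25906420-25906669, minus strand: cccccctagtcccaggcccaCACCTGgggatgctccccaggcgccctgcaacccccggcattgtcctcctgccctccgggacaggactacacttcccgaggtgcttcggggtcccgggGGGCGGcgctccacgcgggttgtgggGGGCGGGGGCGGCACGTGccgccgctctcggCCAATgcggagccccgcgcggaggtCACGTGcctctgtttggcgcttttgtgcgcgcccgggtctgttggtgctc
GAP43, chr3:115623260-115623509, plus strand: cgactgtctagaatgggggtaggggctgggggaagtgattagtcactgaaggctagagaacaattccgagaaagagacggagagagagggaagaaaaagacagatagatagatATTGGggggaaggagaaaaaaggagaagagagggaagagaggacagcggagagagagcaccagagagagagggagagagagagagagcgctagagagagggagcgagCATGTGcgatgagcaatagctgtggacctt
The window of MAP1A holds 1 E-box, 2 GC boxes and 2 CCAAT boxes. The window of STMN1 holds 3 E-boxes, 3 GC boxes and 1 CCAAT box. The window of GAP43 holds 1 E-box, 1 CCAAT box and no GC box, its GC content is 51.6% against 70.4% for MAP1A and 73.2% for STMN1, and 78.4% of its bases are purines (A or G), a share that 0.084% of all 27305 windows reach. None of the 3 windows holds the AP-1 or cAMP letters. Of 27305 windows of the same length 62.2% hold an E-box, 42.3% a GC box, 33.0% a CCAAT box, 6.6% an AP-1 site and 1.8% a cAMP response element. A match describes the letters and not a bound site.

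The 10 genes spanned a wide range of levels. On the FPKM scale, which is per length, MAP1B was highest in SLCDS at 45.8 ± 3.99 FPKM (SD, n = 3), followed by MAPT (24.7 ± 1.29) and STMN1 (23.4 ± 1.30), whose ranges overlapped, by STMN3 (15.8 ± 1.60) and MAP2 (14.7 ± 0.485), whose ranges also overlapped, and by MAP1A (7.10 ± 0.121). GAP43 (2.15 ± 0.268) and DCLK1 (1.54 ± 0.0734) came next without overlap, and DCX (0.319 ± 0.00341) and STMN2 (0.137 ± 0.068) were lowest. In control MAP1B was again highest at 50.4 ± 16.6 FPKM, and MAPT, STMN1, MAP2 and STMN3 overlapped each other between 13.2 and 22.6 FPKM. The order of the 2 low genes differed: in control DCLK1 (1.58 to 2.26 FPKM) lay above GAP43 (0.846 to 1.24 FPKM), and in SLCDS GAP43 (1.85 to 2.35 FPKM) lay above DCLK1 (1.46 to 1.60 FPKM). In bulk RNA, fewer cells that express a gene and less of its RNA per cell cannot be told apart.

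**Figure D1:**
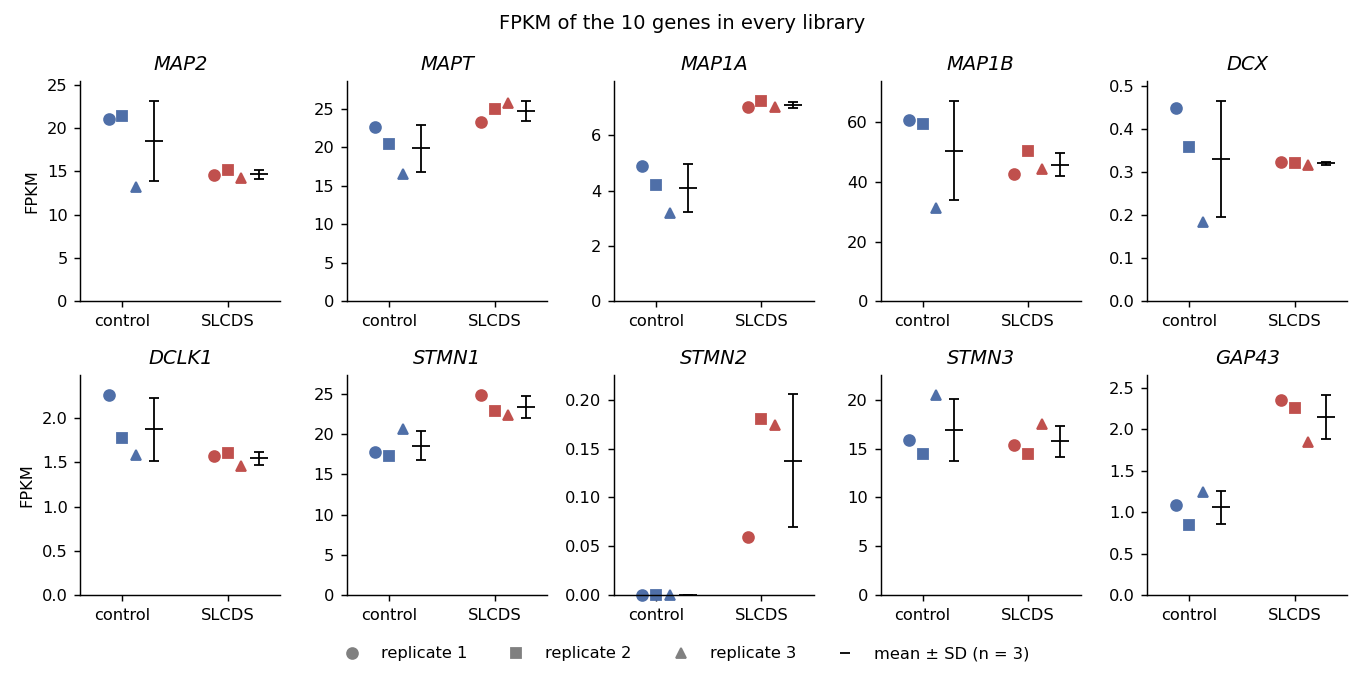
FPKM of each of the 10 genes (vertical axes, each starting at 0) in the 3 control and 3 SLCDS libraries, with the symbol giving the replicate number and the bar the mean ± SD (n = 3). Of the tested genes, MAP1A, MAPT, STMN1 and GAP43 are higher in every SLCDS library than in every control. STMN2, which was not tested, is at 0 FPKM in every control and at 0.059 to 0.18 FPKM in SLCDS. Control replicate 3 (triangle) is the lowest control for MAP2, MAPT, MAP1A, MAP1B, DCX and DCLK1.

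Over all 6 libraries MAP1A and GAP43 rose and no tested gene of the group fell. Of the 10 genes 8 passed the filter on low values (at least 1 FPKM in 3 or more libraries), and 2 of these 8 were higher at a limma adjusted p under 0.05, where 4.28% of all 11506 tested genes were called higher and 1.82% lower. At an unadjusted limma p under 0.05 there were 4 higher and 0 lower, where 10.8% of all tested genes were higher at that p and 7.81% lower (18.6% in both directions). Limma-voom on the fragments recovered from the FPKM steps called 2 higher and 0 lower, where it called 4.33% of tested genes higher and 6.16% in all. For 4 of the 8 the lowest SLCDS value lay above the highest control value, and for none below; over all tested genes 15.5% were higher without overlap and 13.6% lower. Without control replicate 3, 4 of the 8 were called higher (MAP1A, GAP43, STMN1 and MAPT) and 2 lower (MAP2 and MAP1B), beside 16.0% and 11.8% of all tested genes (27.7% in both directions). With each library's trend with transcript length and GC content removed, 4 were called higher and 1 lower (MAP2), beside 9.24% and 8.71% of tested genes. None of the 8 was called without SLCDS replicate 1, SLCDS replicate 2 or control replicate 2, where limma called 2.40%, 2.44% and 3.62% of all tested genes. Just 1 gene was called without SLCDS replicate 3 (GAP43, beside 2.49% of tested genes) and without control replicate 1 (MAP1A, beside 3.58%). DCX and STMN2 were under the filter and were not tested.

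MAP1A, whose product binds along microtubules of mature neurites, stood at 7.03, 7.24 and 7.03 FPKM in SLCDS replicates 1 to 3 and at 4.89, 4.22 and 3.19 FPKM in control replicates 1 to 3. The 3 SLCDS libraries lay close together and above all controls. These values rest on 1215 to 1239 fragments per SLCDS library and 555 to 818 per control library. The mean was 1.73 times that of control, and the log2 fold change of FPKM + 1 was 0.68 (SE 0.13; limma, adjusted p = 0.0233). Without control replicate 3 it was 0.55 (SE 0.07; limma, adjusted p = 0.000333), and after removal of the trend 0.58 (SE 0.07; limma, adjusted p = 0.000695). The direction held in all 19 alternative settings, and 14 of them passed. MAP1A missed the threshold when libraries were scaled to the same FPKM sum (limma, adjusted p = 0.0694), without any 1 of the SLCDS libraries (limma, adjusted p of 0.106 to 0.113) and without control replicate 2 (limma, adjusted p = 0.0672).

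MAP1B encodes the related protein of growing neurites, and its values went the other way in 2 of the 3 controls. It stood at 42.7, 50.3 and 44.3 FPKM in SLCDS replicates 1 to 3 and at 60.8, 59.2 and 31.3 FPKM in control replicates 1 to 3. Control replicates 1 and 2 lay above every SLCDS library and control replicate 3 below every one. Over all libraries the log2 fold change was -0.08 (SE 0.24; limma, adjusted p = 0.894), and without control replicate 3 it was -0.39 (SE 0.06; limma, adjusted p = 0.00149). With the length and GC trend removed it was -0.21 (SE 0.10; limma, adjusted p = 0.192). The gene passed in only 2 of 19 alternative settings, without control replicate 3 and with array quality weights (limma, adjusted p = 0.00317). MAP1B had the highest depth of the group, 6329 to 11790 fragments per library. Its spread among the 3 controls was 33 times what counting alone gives, and 1.95 times between control replicates 1 and 2.

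The ratio of MAP1A to MAP1B within a library does not depend on how libraries are scaled to each other. It was 0.165, 0.144 and 0.159 in SLCDS replicates 1 to 3 and 0.0805, 0.0712 and 0.102 in control replicates 1 to 3. The ranges did not overlap, and the mean ratio in SLCDS was 1.84 times that of control. An exact 2-sided permutation test gave p = 0.1, which is the smallest p that 3 against 3 libraries can give. This and the 2 ratios given further on were chosen with the values known. The longest coding transcript has 10553 nucleotides for MAP1A and 12036 for MAP1B.

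MAPT, the tau gene, stood at 23.3, 25.0 and 25.8 FPKM in SLCDS replicates 1 to 3 and at 22.6, 20.4 and 16.5 FPKM in control replicates 1 to 3. Every SLCDS library lay above every control, with the lowest SLCDS and the highest control close to each other. The log2 fold change was 0.31 (SE 0.12; limma, adjusted p = 0.201) and did not pass over all libraries. It was 0.19 without control replicate 3 (SE 0.06; limma, adjusted p = 0.0354) and 0.25 with the trend removed (SE 0.07; limma, adjusted p = 0.04999). MAPT passed in only 3 of 19 alternative settings, those and array quality weights (limma, adjusted p = 0.0171). In GENCODE release 29 an exon of the antisense gene MAPT-AS1 overlaps an exon of MAPT, and strand use in counting is not given in the sources used here, so fragments of both could not be told apart.

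MAP2, the dendritic marker, was not called over all libraries. It stood at 14.6, 15.2 and 14.2 FPKM in SLCDS replicates 1 to 3 and at 21.0, 21.4 and 13.2 FPKM in control replicates 1 to 3. Control replicates 1 and 2 agreed within counting error (3918 and 3992 fragments), while control replicate 3, with 2563, lay below all SLCDS libraries. The log2 fold change was -0.28 (SE 0.17; limma, adjusted p = 0.458) over all libraries, -0.50 (SE 0.05; limma, adjusted p = 5.99e-05) without control replicate 3 and -0.40 (SE 0.06; limma, adjusted p = 0.0024) after removal of the trend. MAP2 passed in only 3 of 19 alternative settings, the last 2 of these and array quality weights (limma, adjusted p = 6.52e-05). The ratio of MAPT to MAP2 was 1.59, 1.64 and 1.81 in SLCDS and 1.08, 0.953 and 1.25 in control, again without overlap (exact 2-sided permutation p = 0.1). The 3 tested genes outside the group whose centred log2 values were nearest to those of MAP2 over the 6 libraries were POU2F1 (Euclidean distance 0.0675), RFX3 (0.0874) and QKI (0.0948). All 3 were picked for this likeness, so their shared shape is not a separate result. Control replicate 3 lay near the SLCDS level in each: QKI stood at 71.9 to 77.0 FPKM in SLCDS and at 103, 98.8 and 67.0 FPKM in control.

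**Figure D2:**
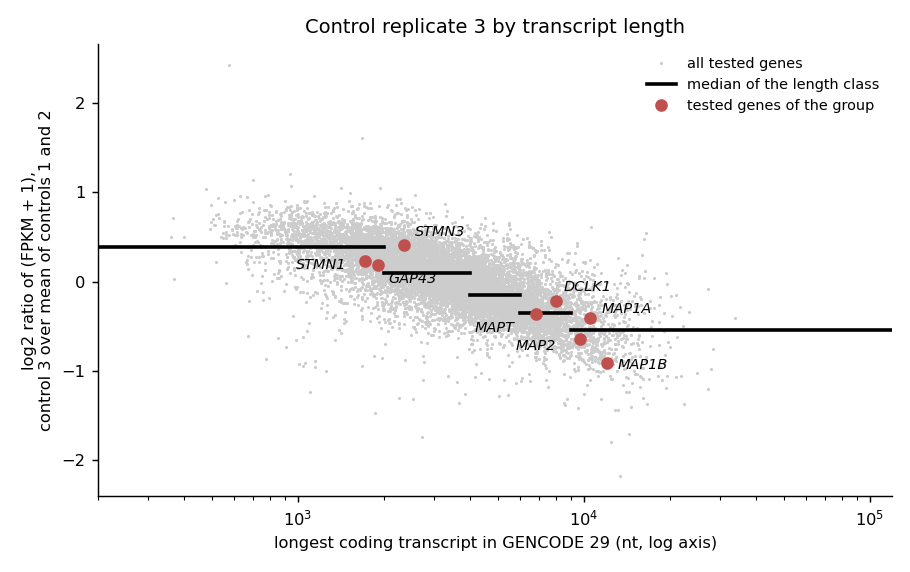
Log2 ratio of FPKM + 1 in control replicate 3 to the mean of controls 1 and 2 (vertical axis) against the length of the longest coding transcript (log axis) for tested genes (grey), with the median of each of 5 length classes (black lines) and the 8 tested genes of the group (red). MAP2, MAPT, MAP1A, MAP1B and DCLK1 lie below 0 and STMN1, STMN3 and GAP43, with shorter transcripts, above 0.

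The long and the short genes of the group split in control replicate 3. On the log2 scale of FPKM + 1 that library differed from controls 1 and 2 by -0.92 for MAP1B, -0.65 for MAP2, -0.41 for MAP1A, -0.36 for MAPT and -0.22 for DCLK1, whose longest coding transcripts have 6816 to 12036 nucleotides. It differed by 0.41 for STMN3, 0.23 for STMN1 and 0.19 for GAP43, with 1712 to 2351 nucleotides. The SLCDS libraries showed far less of this trend: their median difference from controls 1 and 2 was 0.05 for genes under 2000 nucleotides and -0.07 for genes of 9000 or more. The fold changes of MAP2, MAP1B and STMN1 were smaller in size over all libraries than without control replicate 3, and those of MAP1A and MAPT were larger.

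**Figure D3:**
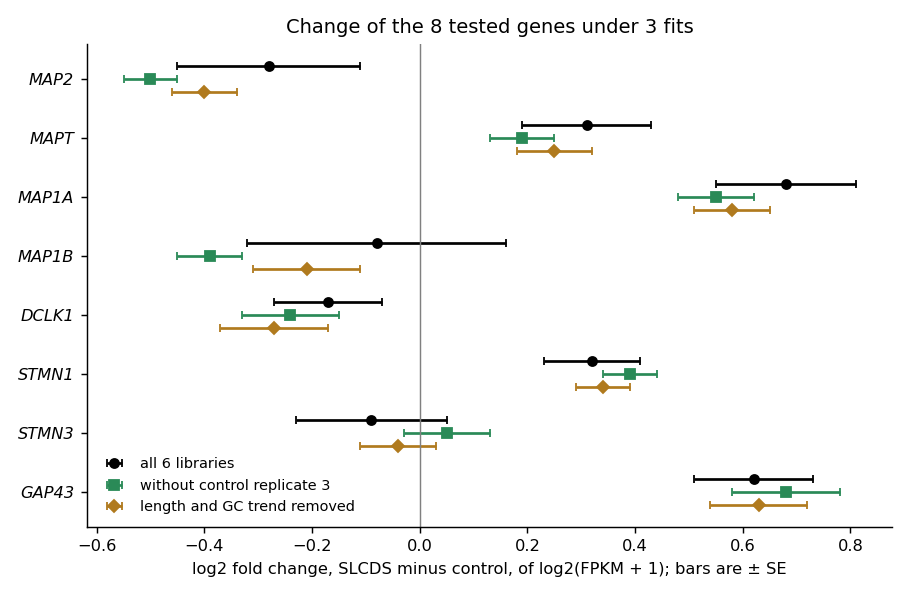
Log2 fold change, SLCDS minus control, of FPKM + 1 for the 8 tested genes, with bars of ± SE, over all 6 libraries (black), without control replicate 3 (green) and after removal of the length and GC trend (brown). MAP1A and GAP43 are near 0.55 to 0.68 in all 3 fits, while MAP1B moves from -0.08 to -0.39 when control replicate 3 is left out.

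The doublecortin genes of the group, which mark young and migrating neurons, were low. DCLK1 was not called, and DCX lay under the filter and was not tested. DCLK1 stood at 1.57, 1.60 and 1.46 FPKM in SLCDS replicates 1 to 3 and at 2.26, 1.77 and 1.58 FPKM in control replicates 1 to 3. The 2 groups overlapped narrowly, since control replicate 3 lay below SLCDS replicate 2. Its log2 fold change was -0.17 (SE 0.10; limma, adjusted p = 0.453), and -0.24 without control replicate 3 (SE 0.09; limma, adjusted p = 0.0779). DCX stood at 0.322, 0.321 and 0.315 FPKM in SLCDS and at 0.447, 0.358 and 0.184 FPKM in control. The SLCDS values rest on 52, 51 and 52 fragments and the control values on 70, 56 and 30, with the SLCDS libraries inside the range of the controls.

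Of the stathmins STMN1 and STMN3 were tested. Neither was called over all libraries, and STMN1 came closest. STMN1, the stathmin found in most dividing cells, stood at 24.9, 22.9 and 22.4 FPKM in SLCDS replicates 1 to 3 and at 17.8, 17.3 and 20.7 FPKM in control replicates 1 to 3. All SLCDS libraries lay above all controls. The log2 fold change was 0.32 (SE 0.09; limma, adjusted p = 0.0972) over all libraries, short of the threshold, and 0.39 (SE 0.05; limma, adjusted p = 0.000542) without control replicate 3. With the trend removed it was 0.34 (SE 0.05; limma, adjusted p = 0.00209), and STMN1 also passed with libraries scaled to the same FPKM sum (limma, adjusted p = 0.0313) and after quantile normalization (limma, adjusted p = 0.0444). In all STMN1 passed in 5 of 19 alternative settings. It missed with limma-voom (adjusted p = 0.103), with the replicate block (limma, adjusted p = 0.196) and without any 1 of the libraries other than control replicate 3 (limma, adjusted p of 0.238 to 0.37). Of 10 proliferation markers 9 were called higher in SLCDS and none lower, where 4.28% of all tested genes were called higher and 1.82% lower. Without control replicate 3 there were 10 higher and 0 lower, beside 16.0% and 11.8% of all tested genes. The summed level of these markers was 82.9 to 87.7 FPKM in SLCDS and 47.6 to 50.7 FPKM in control. Among them were the Ki-67 antigen gene MKI67 (log2 fold change 1.26), UBE2C (1.18) and AURKB (1.07). Control replicate 3 was the highest control for STMN1, UBE2C and AURKB and the lowest for MKI67. The part of these markers in the level of STMN1 was not tested.

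STMN3, a stathmin of neurons, stood at 15.4, 14.4 and 17.5 FPKM in SLCDS replicates 1 to 3 and at 15.9, 14.4 and 20.5 FPKM in control replicates 1 to 3. The ranges overlapped almost fully, and the log2 fold change was -0.09 (SE 0.14; limma, adjusted p = 0.801), or 0.05 (SE 0.08; limma, adjusted p = 0.666) without control replicate 3. The ratio of STMN1 to STMN3 was 1.61, 1.59 and 1.28 in SLCDS and 1.12, 1.20 and 1.01 in control, without overlap (exact 2-sided permutation p = 0.1). STMN2, the neuronal stathmin also called SCG10, was listed at 0 in all 3 controls and at 0.059, 0.180 and 0.174 FPKM in SLCDS replicates 1 to 3. By the steps of the FPKM scale these stand for 1, 3 and 3 fragments, or for a common multiple of these numbers if the transcript length used was a multiple of the smallest one that the steps allow. A count of 0 allows up to 3 fragments, or 0.176 to 0.183 FPKM in the controls. At this depth the groups could not be told apart for STMN2, and no fold is given.

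**Figure D4:**
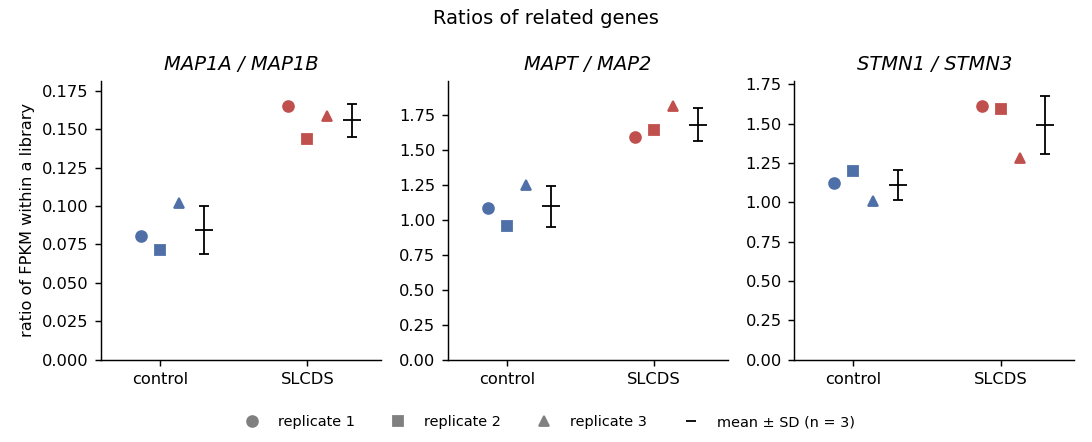
Ratio of the FPKM of 2 related genes within each library (vertical axes, starting at 0) for MAP1A over MAP1B, MAPT over MAP2 and STMN1 over STMN3, with symbols for replicates and bars for the mean ± SD (n = 3). All 3 ratios are higher in every SLCDS library than in every control.

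GAP43, a protein kinase C substrate on the inner face of the growth cone membrane, rose. It stood at 2.35, 2.26 and 1.85 FPKM in SLCDS replicates 1 to 3 and at 1.09, 0.846 and 1.24 FPKM in control replicates 1 to 3. All SLCDS libraries lay above all controls, at low levels: 141, 133 and 113 fragments against 63, 49 and 75. The spread within each group was close to what counting gives, 1.42 times the counting error in SLCDS and 1.49 times in control. Mean FPKM was 2.03 times that of control, and the log2 fold change of FPKM + 1 was 0.62 (SE 0.11; limma, adjusted p = 0.0168). That scale understates the change of low genes; on the recovered fragments limma-voom gave 1.03 (SE 0.18; adjusted p = 0.0196). Control replicate 3 was the highest control, and without it the log2 fold change was 0.68 (SE 0.10; limma, adjusted p = 0.000792).

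GAP43 kept its direction in all 18 alternative settings in which it was tested and passed in 14 of them. It missed the threshold without SLCDS replicate 1 or 2 (limma, adjusted p = 0.0964 and 0.0938) and without control replicate 1 or 2 (limma, adjusted p = 0.0563 and 0.0564). The 3 tested genes outside the group with centred log2 values nearest to those of GAP43 over the 6 libraries were LINGO1 (Euclidean distance 0.132), AURKA (0.136) and CYB5R1 (0.157). LINGO1, a membrane protein of neurons and oligodendrocyte precursors, had a mean of 1.48 ± 0.176 FPKM in SLCDS against 0.725 ± 0.139 in control. It passed the filter through its SLCDS libraries alone, since its controls stood at 0.729, 0.584 and 0.862 FPKM. AURKA, a mitotic kinase, had means of 4.69 ± 0.476 and 2.92 ± 0.363 FPKM. CYB5R1, a flavoprotein reductase, had means of 123 ± 4.14 and 80.0 ± 8.90 FPKM.

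Most tested genes of the other microtubule and growth cone lists were not called over all libraries. For comparison, 4.28% of all 11506 tested genes were called higher and 1.82% lower, and 16.0% and 11.8% without control replicate 3. Of 20 other microtubule-binding proteins 13 were tested, 1 rose and 2 fell, with a median log2 fold change of 0.01 where that of all tested genes was 0.00. Without control replicate 3 there were 1 higher and 4 lower, with a median of -0.09. MAP6D1, a relative of the cold-stable microtubule protein MAP6, fell to 8.85 ± 0.502 FPKM from 17.2 ± 3.60 in control (SD, n = 3; log2 fold change -0.87; limma, adjusted p = 0.013), and the log2 fold change was -0.71 without control replicate 3 (limma, adjusted p = 3.56e-05). MAP6D1 missed the threshold without any 1 of the SLCDS libraries (limma, adjusted p of 0.0591 to 0.0769). DCLK2, the close relative of DCLK1, stood at 18.0 ± 0.236 FPKM in SLCDS, lower than the 25.2 ± 1.64 of control (log2 fold change -0.46; limma, adjusted p = 0.0115) and was thus far more abundant than DCX or DCLK1. Without control replicate 3 its log2 fold change was -0.50 (limma, adjusted p = 5.99e-05). DCLK2 did not pass with libraries scaled to the same FPKM sum (limma, adjusted p = 0.0764) or without any 1 of the SLCDS libraries (limma, adjusted p of 0.0687 to 0.0824). MTUS1, a microtubule-associated tumor suppressor, rose (log2 fold change 0.39; limma, adjusted p = 0.0367) but passed in only 10 of 18 alternative settings, among them the one without control replicate 3 (log2 fold change 0.33; limma, adjusted p = 0.0106). It missed in the other 8: FPKM-sum scaling, quantile normalization, the replicate block, and without any 1 of the libraries other than control replicate 3 (limma, adjusted p of 0.0548 to 0.174).

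Among plus-end, minus-end and severing proteins none of 21 tested genes was called, where 6.09% of all tested genes were. In that list limma gave 1 higher and 1 lower at an unadjusted p under 0.05, limma-voom called 0, and without control replicate 3 there were 1 higher and 6 lower. The most abundant of them, the long linker protein genes DST (86.6, 84.1 and 32.5 FPKM in control replicates 1 to 3 and 55.5 to 69.1 in SLCDS) and MACF1 (75.4, 71.6 and 35.6 FPKM, and 55.7 to 63.8 in SLCDS), had the same shape as MAP1B. Their log2 fold changes of 0.01 and 0.04 turned to -0.44 (limma, adjusted p = 0.00186) and -0.30 (limma, adjusted p = 0.00316) without control replicate 3.

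Of 15 tested tubulin-modifying enzymes VASH1 rose and none fell, with a median log2 fold change of -0.13, and without control replicate 3 there were 1 higher and 6 lower. VASH1, a vasohibin that removes the terminal tyrosine of alpha-tubulin, averaged 5.75 ± 0.131 FPKM in SLCDS and 3.23 ± 0.374 in control (log2 fold change 0.68; limma, adjusted p = 0.00492) and passed in all 18 alternative settings in which it was tested, with 0.61 without control replicate 3. Of 20 tested kinases and activators that act on these proteins CDK5R2 rose, with 1.39 ± 0.0526 FPKM in SLCDS and 0.598 ± 0.147 in control (log2 fold change 0.58; limma, adjusted p = 0.0104), and none fell, with a median of 0.01; without control replicate 3 there were 1 higher and 2 lower, the kinase genes MAPK10 and PAK1, with a median of -0.03. CDK5R2 encodes p39, an activator of the neuronal kinase CDK5, which phosphorylates tau and doublecortin. It passed the filter through its SLCDS libraries, since no control reached 1 FPKM. Without control replicate 3 its log2 fold change was 0.66 (limma, adjusted p = 0.000395), and it missed the threshold after quantile normalization (limma, adjusted p = 0.0524) and without any 1 of the SLCDS libraries (limma, adjusted p of 0.0569 to 0.0618).

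Of 19 other growth cone membrane and actin proteins tested, none rose and 1 fell, with a median of -0.09, and without control replicate 3 there were 2 higher and 7 lower. The one that fell was MARCKSL1, a membrane and actin-binding protein phosphorylated by protein kinase C as GAP43 is, with 78.0 ± 4.85 FPKM in SLCDS and 121 ± 19.4 in control (log2 fold change -0.62; limma, adjusted p = 0.0286). Its change was opposite in sign to that of GAP43, and both were called without control replicate 3 as well (limma, adjusted p = 0.000248 for MARCKSL1). MARCKSL1 missed the threshold without control replicate 1 (limma, adjusted p = 0.0793), without any 1 of the SLCDS libraries (limma, adjusted p of 0.102 to 0.148) and with the replicate block (limma, adjusted p = 0.0541). BASP1, a growth cone protein related in function to GAP43 and named here outside the rule for named genes, lay under the filter at mean values of 0.858 FPKM in SLCDS and 0.535 in control.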

How the data were processed

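RNA of 6 U251 samples was sequenced after TRIzol extraction and library construction (VAHTS Universal V6), per the labels' protocols. The authors deposited FPKM values per gene symbol, 1 file per sample. For aligner, counter and annotation the entry is: not given in the sources used here. GRCm38 and mm10, both mouse builds, are named in the submitters' processing notes although the symbols are human, so no coordinates of measured genes are printed. Sample titles gave groups and replicate numbers. Ratios of low FPKM values gave relative depths, and the depth at which every gene had a whole transcript length gave total fragments; all 16832 symbols then came out as whole fragments within 0.001. Where all counts of a gene share a factor, only the smallest numbers are found.

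Genes with at least 1 FPKM in 3 or more libraries (11506) were tested on log2(FPKM + 1) by limma 3.58.1 (R 4.3.3; trended prior variance; 2-sided), adjusted by Benjamini-Hochberg over all of them and called under 0.05. The procedure was tested on simulated data. Alternatives were pseudocounts of 0.1 and 0.5, no filter or a mean of at least 5 FPKM, 3 scalings, 3 variance models, a replicate block, removal of each library's spline trend (4 degrees of freedom) with transcript length and GC content from GENCODE release 29 (98.0% of tested genes matched), each library left out, and, chosen after seeing the data, limma-voom on the recovered fragments. The text names all 10 genes, up to 3 called genes with the largest change from each other list described (or the 2 most abundant where none was called), and the 3 genes nearest to MAP2 and to GAP43. For the oligodendrocyte list the gene named by that rule is not reported here. Of the cell type markers, 1 of 4 tested neuron markers was higher, 2 of 5 astrocyte markers and 1 of 2 oligodendrocyte markers lower, 2 of 3 fibroblast and pericyte markers higher, and no microglia marker was tested. Over all tested genes 4.28% were called higher and 1.82% lower. The 10 genes and the lists were chosen with earlier results of these data known. Python 3.11.15, numpy 2.4.6, pandas 2.3.3 and matplotlib 3.10.9 were used.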

Additional observations from a re-analysis of the deposited data

How the results depend on the processing

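Over all tested genes 701 were called, 492 higher and 209 lower, and 2 of the 10 genes were among them. With a mean of at least 5 FPKM the counts were 324 and 1, the latter because GAP43 was not tested. With array quality weights they were 3277 and 6, and after removal of the length and GC trend 2024 (1042 higher and 982 lower) and 5. With the replicate block they were 455 and 2. The titles link same-numbered samples by the number alone. Deviations of same-numbered SLCDS and control libraries from their group means correlated at -0.33, 0.36 and 0.07. Control replicate 3 stood far from the other controls and so sets much of all 3 control deviations. These correlations therefore cannot show whether same-numbered samples were prepared together. Leaving out 1 library gave 276 to 3191 called genes and 0 to 6 of the 10, both highest without control replicate 3; leaving out any of the 6 moved the count of genes by more than 1.5 times. DST and MACF1 turned lower without control replicate 3 (-0.44 and -0.30) and with array quality weights (-0.41 and -0.28); over the libraries left out in turn their log2 fold changes ran from -0.44 to 0.25 and from -0.30 to 0.23. The other settings (other pseudocounts, no filter, scalings, constant or robust prior, limma-voom) left the count of called genes within 1.5 times. STMN2 is limited by depth. DCX, with 30 to 70 fragments per library, was left out by the filter on FPKM.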
